A study of Mus musculus with 36 samples.

Results

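Chchd10 and 7 genes of the same protein family (Chchd1, Chchd2, Chchd3, Chchd4, Chchd5, Chchd6 and Chchd7) were followed through the soleus and the extensor digitorum longus (EDL) of mice lacking estrogen-related receptors (ERRs) in muscle. These 8 genes, of 17873 with a value in any library, were chosen by the changes of Chchd10 in the ERRalpha/ERRgamma class. There its fall in EDL and its difference between muscles ranked 1 relative to their SEs (though not by size). Every change in that class is thus given as a description without a test, while its WT libraries also enter the tested comparison of WT muscles. All 8 passed the filter on low levels, which kept 13404 genes, and all 8 had a value in each of the 36 libraries.

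The CHCH domain is a small helical hairpin held together by paired cysteines, and most proteins that carry it work in the mitochondrial intermembrane space. They are imported by the MIA40 relay, in which Chchd4 (MIA40) oxidises the cysteines of an incoming protein and Gfer, a sulfhydryl oxidase, reoxidises Chchd4. Chchd10 is abundant in skeletal and cardiac muscle and is known from human motor neuron disease and myopathy, and the ERRs are nuclear receptors known for driving genes of oxidative metabolism in muscle.

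By its labels, the study deleted ERRalpha alone (mKO), ERRbeta with ERRgamma (dmKO) or ERRalpha with ERRgamma (dmKO). All mice were 1-year-old males on the C57BL/6JBom background, and the wild-type (WT) animals were littermates. Floxed receptor genes were recombined by Cre under the human alpha-skeletal actin (HSA) promoter, which acts in muscle fibres, so other cells of the muscle keep their receptors. RNA of each muscle was sequenced from 3 WT and 3 knockout-labelled animals per class, 12 groups in all. The FXp mark in the column names was read as floxed with Cre and FX- as floxed without Cre, and the direction of every change rests on that reading, so "knockout-labelled" is used here. The column names also hold numbers, read as animal numbers, by which 14 animals gave both muscles.

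Values are log2 signals after quantile normalisation by the authors, so a difference of 1 is a factor of 2. The reads behind a value are unknown, and each library had a value for 13689 to 14975 genes. Esrra, the gene of ERRalpha, was 5.33 ± 0.061 in WT and 3.09 ± 0.17 in knockout-labelled EDL of the ERRalpha/ERRgamma class, but 5.20 ± 0.083 and 5.01 ± 0.084 in EDL of the ERRalpha class (SD, n = 3). In soleus, Esrra was 5.68 ± 0.25 in WT and 5.11 ± 0.046 in knockout-labelled libraries of the ERRalpha/ERRgamma class, and 5.52 ± 0.30 and 5.85 ± 0.11 in the ERRalpha class, so its low level was mostly in EDL of the former. Esrrg, the gene of ERRgamma, was higher in every knockout-labelled group, also in the ERRalpha class, whose label does not name it. In that class it was 1.95 ± 0.1 against 1.34 ± 0.15 in EDL and 4.16 ± 0.23 against 3.81 ± 0.14 in soleus. It was 1.69 ± 0.34 against 1.18 ± 0.23 in EDL and 4.89 ± 0.048 against 3.68 ± 0.17 in soleus of the ERRalpha/ERRgamma class, and 1.93 ± 0.16 against 1.45 ± 0.11 and 4.41 ± 0.17 against 3.31 ± 0.23 in the ERRbeta/ERRgamma class. Esrrb, the gene of ERRbeta, was 2.92 ± 0.13 against 2.63 ± 0.15 in soleus of the ERRbeta/ERRgamma class. Recombination of a floxed gene can remove a short stretch that a summed signal misses, so most labels are not checked by these values. The defining fibre markers were as the muscle labels say: summed fast-fibre markers were 15 to 15.09 over EDL groups and 13.66 to 14.24 over soleus groups, and slow-fibre markers were 4.36 to 7.21 and 13.33 to 14.35.

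Chchd10 (ENSMUSG00000049422.7) lies on chromosome 10 from 75933130 to 75937747 on the plus strand of GRCm38, and its exons share 155 bases with Mmp11 and 25 with Gm867, both on the opposite strand. Mmp11, a matrix metalloproteinase gene, had a log2 signal of -1.14 to 1.08 over the 36 libraries, and its mean was -0.22 in both WT and knockout-labelled EDL of the ERRalpha/ERRgamma class. Whether the authors' counting used strand is not given in the sources used here. Smarcb1, a chromatin remodelling subunit 11513 bases away, differed by 0.05 between the same groups, from 2.59 in WT to 2.64. Gm867 had a value in only 15 of the 36 libraries. In that class it was lower in the knockout-labelled libraries, by -0.76 in EDL (2 WT libraries against 1) and -1.01 in soleus, at a log2 level of -4.04 to -2.03.

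RefSeq promoter windows on GRCm38.p6, 250 bases before to 50 after the start site, were found for 6 of the 8 genes. Chchd2 and Chchd7 are only named. The windows of the 3 genes with the largest falls in EDL of the ERRalpha/ERRgamma class, which chose the genes, are printed 5′ to 3′ on the gene's strand. Each match to the nuclear receptor half-site AGGTCA, on either strand, is in capitals. Chchd10 is at chr10:75932880-75933179 (plus strand), Chchd3 at chr6:33060211-33060510 (minus strand) and Chchd4 at chr6:91473374-91473673 (minus strand).
Chchd10: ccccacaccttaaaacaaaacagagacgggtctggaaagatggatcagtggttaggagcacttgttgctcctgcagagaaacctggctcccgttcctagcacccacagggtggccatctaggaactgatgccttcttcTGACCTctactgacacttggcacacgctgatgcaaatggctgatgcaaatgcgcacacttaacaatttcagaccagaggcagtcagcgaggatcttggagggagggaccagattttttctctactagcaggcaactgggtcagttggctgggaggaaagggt
Chchd3: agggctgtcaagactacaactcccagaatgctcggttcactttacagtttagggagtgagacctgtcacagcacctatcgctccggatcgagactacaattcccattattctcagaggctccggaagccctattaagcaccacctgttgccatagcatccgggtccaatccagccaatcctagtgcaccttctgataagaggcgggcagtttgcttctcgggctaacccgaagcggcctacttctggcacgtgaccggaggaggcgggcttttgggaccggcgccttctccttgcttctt
Chchd4: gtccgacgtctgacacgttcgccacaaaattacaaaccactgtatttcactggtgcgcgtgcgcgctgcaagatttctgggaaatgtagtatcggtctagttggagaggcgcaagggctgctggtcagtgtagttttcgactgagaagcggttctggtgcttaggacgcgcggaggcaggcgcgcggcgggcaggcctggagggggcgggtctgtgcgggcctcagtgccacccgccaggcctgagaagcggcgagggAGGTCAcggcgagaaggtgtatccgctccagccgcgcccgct
The match in Chchd10, at chr10:75933018-75933023, starts at position -112 from the start site. AGGTCA was present in 5 of the 6 windows (all but Chchd3), against 16.3% of all 32851 windows of 300 bases. The longer ERR response element TNAAGGTCA, which contains the half-site, was in 0 of 6 and in 1.28% of all windows. The ETS site CCGGAAG was in the windows of Chchd3 and Chchd5 and in 8.86% of all windows. A match is a string of letters and not a measured site, and the absence of one says only that these letters are not in this window.

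Group means of Chchd10 in EDL were 7.61 to 7.77, with 1 exception. For the ERRalpha/ERRgamma class, WT EDL libraries were at 7.82, 7.77 and 7.64 and the knockout-labelled libraries at 4.97, 4.72 and 5.10. The lowest WT library was thus above the highest knockout-labelled one, and the signal of knockout-labelled EDL was 14.2% of WT (a change of -2.82 ± 0.089, SE, n = 3 per group). In soleus of the same class, WT libraries were at 7.47, 7.48 and 7.60 and knockout-labelled libraries at 7.17, 7.21 and 7.18. These did not overlap either, so the lower level was not limited to EDL, but soleus kept 79.4% of the WT signal (-0.33 ± 0.089). The change in soleus minus that in EDL was 2.48 ± 0.13. Esrra itself was lower by more in EDL (5.33 to 3.09) than in soleus (5.68 to 5.11) of these libraries. So was Esrrb, which the label of this class does not name (0.36 to -1.24 in EDL, 3.00 to 2.61 in soleus). In EDL of the ERRalpha class the mean of Esrrb was lower too (-0.04 to -0.70), with WT libraries from -0.54 to 0.68. The part of either gene in the difference was not tested.

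**Figure D1:**
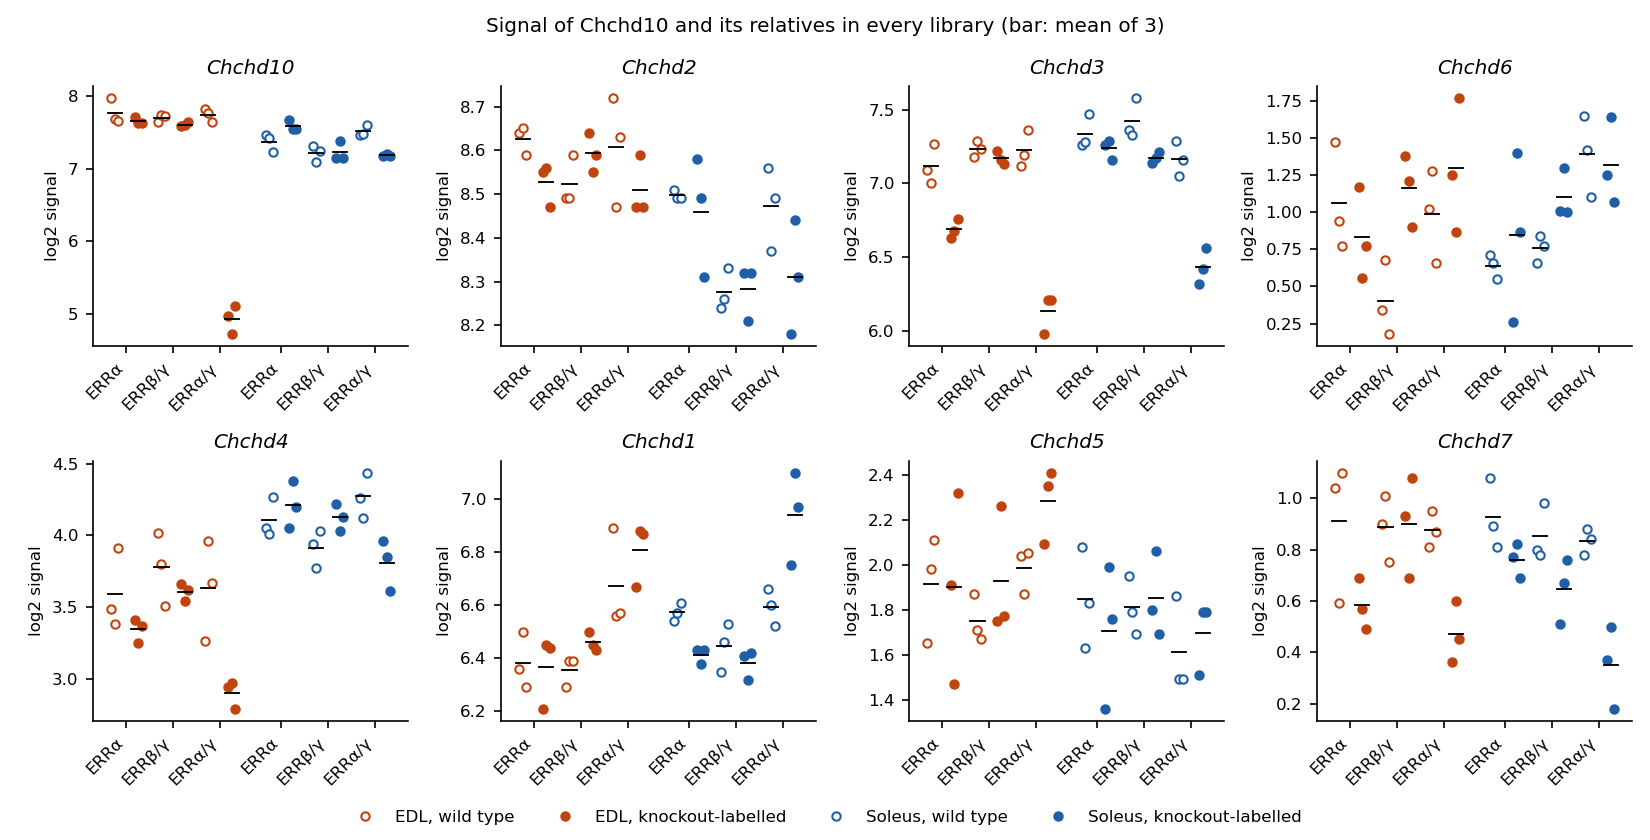
Log2 signal (vertical axis) of the 8 genes in each of the 36 libraries, by muscle and receptor class (horizontal axis). Open points are wild-type and filled points knockout-labelled libraries, bars are means of 3, and the vertical scale differs between genes. Knockout-labelled EDL of the ERRα/γ class, at 4.72 to 5.10, is the only group of Chchd10 below 7.

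Marker lists were read beside this fall, and most of their summed ranges overlapped between the groups. Between WT and knockout-labelled EDL of the ERRalpha/ERRgamma class, the 9 fast-fibre markers summed to 15 to 15.07 and 15.08 to 15.09, the 8 slow-fibre markers to 4.76 to 6.49 and 4.70 to 7.21, and the 5 fibroblast markers to 7.63 to 8.04 and 8.04 to 8.49. The 5 endothelial markers summed to 5.56 to 5.96 and 5.29 to 5.71, the 5 leukocyte markers to 1.28 to 2.89 and 1.5 to 3.12, the 5 fat markers to 3.31 to 6.27 and 3.20 to 4.71, and no marker was missing in all 3 libraries of either group. Gene by gene, 7 of the 8 slow-fibre markers had changes above 0 (median 1.2, Myh7 3.55), and 5 of the 5 fat markers had changes below 0 (median -1.2). Libraries were apart for only 3 of the 8 slow-fibre markers, all higher (26.4% of all genes), and for 0 of the 5 fat markers (11.6% of all genes lower). Genes detected were 14056 to 14399 in WT and 14401 to 14859 in knockout-labelled EDL. The part of these shifts in the fall of Chchd10 was not tested. In bulk muscle, fewer fibres with Chchd10 RNA and less of it per fibre cannot be told apart.

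Ordered by mean, Chchd10 went from 7.77 ± 0.18 in EDL of ERRalpha WT down to 7.19 ± 0.02 in knockout-labelled soleus of the ERRalpha/ERRgamma class, and then to 4.93 ± 0.20 in knockout-labelled EDL of that class (SD, n = 3). Neighbours in this order overlapped library by library with 2 exceptions. One was the step from soleus of ERRalpha/ERRgamma WT (7.52 ± 0.071) to soleus of ERRalpha WT (7.38 ± 0.13), and the other the last step, a gap of 2.3.

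WT EDL had more Chchd10 than WT soleus in the 18 WT libraries of all classes. EDL ran from 7.64 through a median of 7.73 to 7.98 (n = 9), and soleus from 7.10 through 7.43 to 7.60 (n = 9). The groups did not overlap, which held for 18% of genes in either direction and 8.96% with soleus lower. Soleus was lower by 0.37 ± 0.051 on the log2 scale, or 77.4% of EDL (limma, adjusted p = 4.77e-07). The WT libraries of the ERRalpha/ERRgamma class, part of the changes that chose Chchd10, are among these 18. Over 27 alternatives, including the contrast without them, the change was -0.44 to -0.33 and stayed called (limma, adjusted p up to 1.46e-05). The test has 4 of the 8 genes called, 2 lower in soleus (Chchd10 and Chchd2) and 2 higher (Chchd3 and Chchd4), in a comparison that called 54.4% of all genes tested (30.8% higher and 23.6% lower), so that count is close to the background. The fibre markers moved with it: 8 of 8 slow-fibre markers were called higher and 9 of 9 fast-fibre markers lower in soleus, and their part in the difference was not tested.

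The same order held inside animals. In 13 of the 13 animals with both muscles outside the ERRalpha/ERRgamma dmKO group, soleus was below EDL for Chchd10, by -0.64 to -0.03. These pairs reuse the libraries above, so in WT animals the order follows from the WT groups not overlapping. No share over all genes is given here for such counts of animals. The smallest gaps were those of the 3 ERRalpha mKO animals, -0.08 to -0.03, against -0.51 to -0.26 in their 3 WT littermates. In the 1 knockout-labelled ERRalpha/ERRgamma animal with both muscles, EDL was at 5.10 and soleus at 7.18, a difference of 2.08 in the opposite direction.

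**Figure D2:**
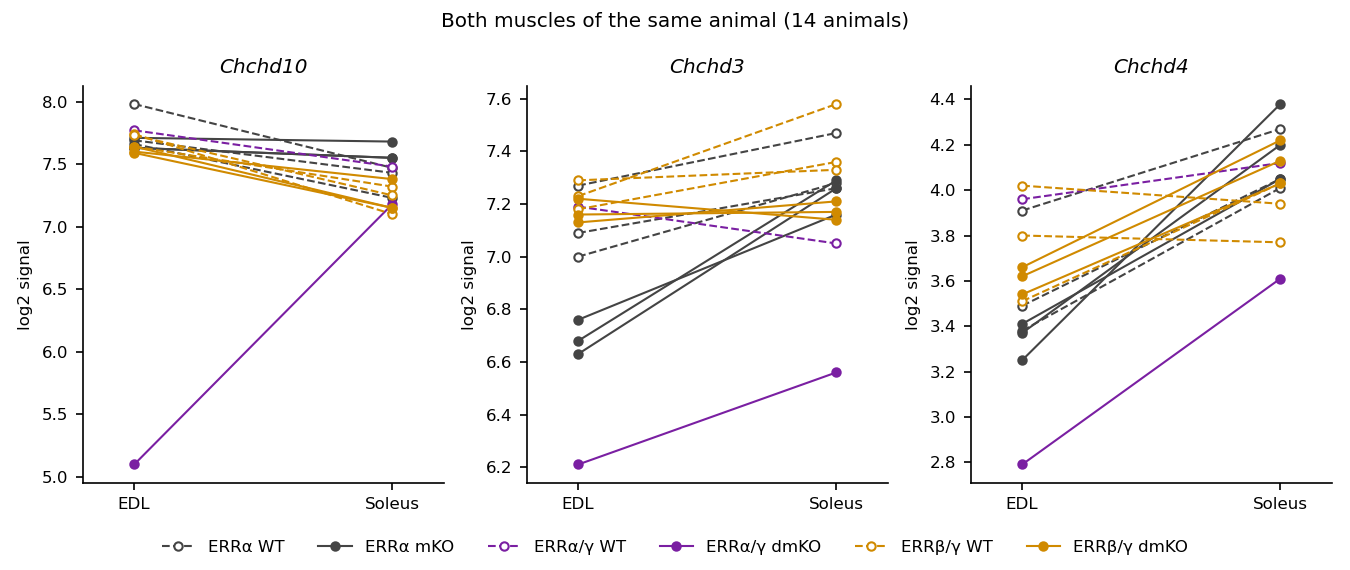
Log2 signal (vertical axis) of Chchd10, Chchd3 and Chchd4 in EDL and soleus (horizontal axis), with a line for each of the 14 animals that gave both muscles; dashed lines with open points are wild type, solid lines knockout-labelled, and colours are receptor classes. For Chchd10, 13 lines fall from EDL to soleus, and that of the ERRα/γ dmKO animal rises from 5.10 to 7.18.

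In the libraries labelled ERRalpha mKO, no change of Chchd10 was called. Knockout-labelled EDL libraries were at 7.71, 7.63 and 7.63 and WT libraries at 7.98, 7.69 and 7.66. The groups overlapped, and the change was -0.12 ± 0.089 (95% interval -0.30 to 0.07, adjusted p = 0.603). In soleus the knockout-labelled libraries (7.68, 7.55 and 7.55) were all above the WT ones (7.47, 7.43 and 7.23). That change of 0.22 ± 0.089 had an unadjusted p of 0.0205 and did not pass after adjustment over all genes (0.336). The difference between the muscles' changes was 0.33 ± 0.13 (adjusted p = 0.506).

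In the libraries labelled ERRbeta/ERRgamma dmKO, Chchd10 was at 7.59, 7.60 and 7.64 in knockout-labelled EDL against 7.64, 7.74 and 7.73 in WT. That is a change of -0.09 ± 0.089 (95% interval -0.28 to 0.09, adjusted p = 0.928). In soleus, 7.15, 7.38 and 7.15 stood against 7.32, 7.10 and 7.25, with a change of 0.01 ± 0.089 (95% interval -0.18 to 0.19, adjusted p = 0.982). The intervals of these 2 classes in EDL reach no further down than -0.30, while the interval of the ERRalpha/ERRgamma change runs from -3 to -2.63. That last class chose the gene, so the contrast between classes is not tested here.

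**Figure D3:**
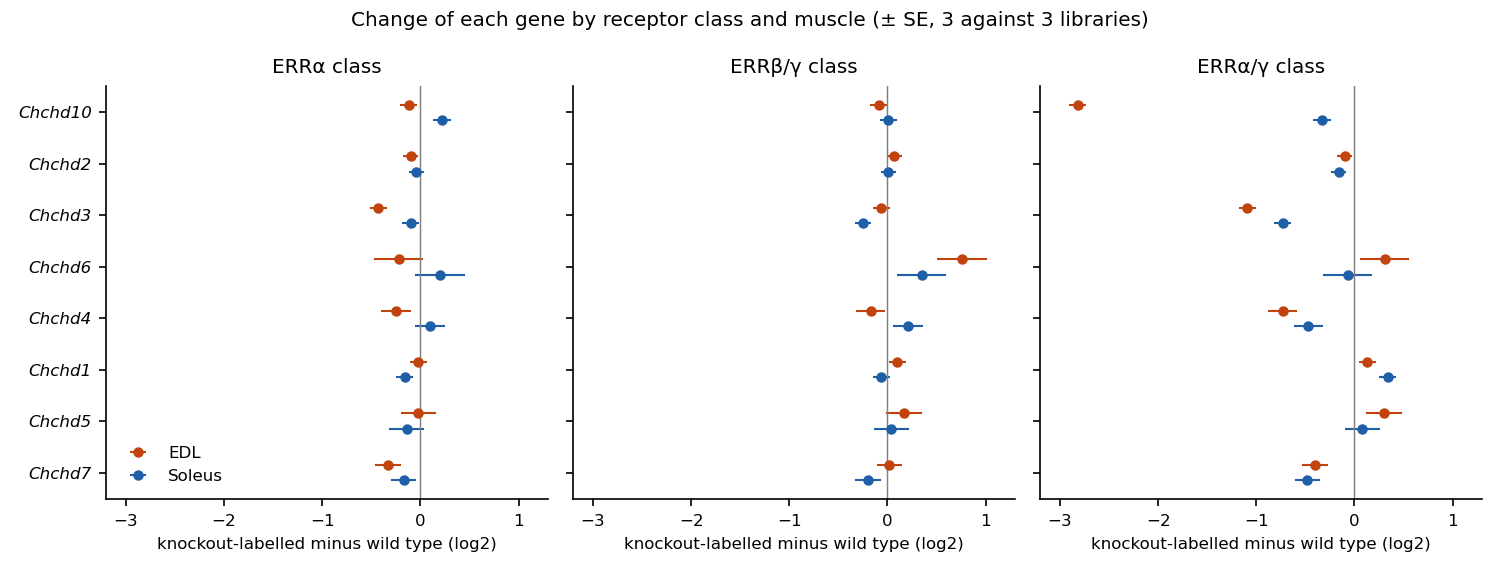
Log2 change from wild type to knockout-labelled (horizontal axis, mean ± SE, 3 against 3 libraries), of the 8 genes (vertical axis) in EDL and soleus, with 1 panel per receptor class. In the ERRα/γ class Chchd10 is at -2.82 in EDL and -0.33 in soleus, and in the other classes it lies between -0.12 and 0.22.

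Chchd2 is the closest relative of Chchd10, joins it in complexes and is linked with Parkinson's disease. Its gene (ENSMUSG00000070493.3, chromosome 5, 129881156 to 129887470, minus strand) showed no such fall. In EDL of the ERRalpha/ERRgamma class it was at 8.72, 8.47 and 8.63 in WT and 8.47, 8.59 and 8.47 in knockout-labelled libraries, which overlap (-0.10 ± 0.074). Soleus changed by -0.16 ± 0.074. Chchd2 shared the direction of Chchd10 between WT muscles: soleus was lower by 0.17 ± 0.043 on the log2 scale (adjusted p = 0.00127), although the libraries overlapped (8.24 to 8.56 against 8.47 to 8.72). Within animals, soleus was below EDL in 12 of 13.

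Chchd3 and Chchd6 encode MIC19 and MIC25, parts of the MICOS complex that bind the core protein Immt (mitofilin) and shape the cristae junctions. Chchd3 (ENSMUSG00000053768.13, chromosome 6, 32790976 to 33060260, minus strand) was the 1 gene of the 8 called in EDL of the ERRalpha class. WT libraries were at 7.09, 7 and 7.27 and knockout-labelled libraries at 6.63, 6.68 and 6.76. All 3 knockout-labelled libraries lay below all 3 WT libraries, and the signal fell to 74.4% of WT (-0.43 ± 0.085, adjusted p = 0.00313 over 13285 genes).

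The comparison called 3.28% of genes, 1.82% higher and 1.46% lower, and 1 of 8 is read against that share. The fall of Chchd3 was called under every alternative run, with changes of -0.49 to -0.35 and adjusted p of 0.00141 to 0.0456. Red blood cell markers moved with it, from 8.24 to 8.51 in WT to 6.97 to 7.54 in knockout-labelled EDL, and endothelial markers from 5.17 to 5.44 to 4.95 to 5.11. Slow-fibre markers (4.70 to 5.68 and 5.27 to 6.2) and fast-fibre markers (15.03 to 15.08 and 15.04 to 15.06) overlapped. The part of these markers was not tested. Besides Chchd3, the libraries of Chchd2 did not overlap (8.59 to 8.65 in WT, 8.47 to 8.56 in knockout-labelled), as for 23% of genes in either direction and 9.42% lower, and its change of -0.10 ± 0.074 was not called (adjusted p = 0.592).

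In soleus of the ERRalpha class Chchd3 changed by -0.10 ± 0.085 (adjusted p = 0.741), from 7.26, 7.28 and 7.47 in WT to 7.26, 7.29 and 7.16, which overlap. The difference between the muscles was 0.33 ± 0.12, with an unadjusted p of 0.011 and an adjusted p of 0.482, so a call in EDL and none in soleus does not show that the muscles differ. Within animals, soleus was above EDL for Chchd3 by 0.40 to 0.63 in the 3 mKO animals and by 0.18 to 0.28 in the 3 WT animals of this class.

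The lowest values of Chchd3 were those of the ERRalpha/ERRgamma class. EDL went from 7.12, 7.19 and 7.36 to 5.98, 6.21 and 6.21, or 47% of WT (-1.09 ± 0.085). Soleus went from 7.29, 7.05 and 7.16 to 6.32, 6.42 and 6.56, or 60.1% of WT (-0.73 ± 0.085). Neither pair overlapped. The gap between the muscles, 0.36 ± 0.12, was small beside the 2.48 of Chchd10. Ordered by mean, the 9 groups of Chchd3 from 7.42 to 7.12 overlapped neighbour by neighbour, and below them ERRalpha mKO EDL (6.69 ± 0.067), ERRalpha/ERRgamma dmKO soleus (6.43 ± 0.12) and dmKO EDL (6.13 ± 0.13) each stood clear of the next (SD, n = 3).

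In the ERRbeta/ERRgamma class, Chchd3 in soleus was at 7.36, 7.33 and 7.58 in WT and 7.14, 7.17 and 7.21 in knockout-labelled libraries, with no overlap. The change of -0.25 ± 0.085 did not pass (adjusted p = 0.0771). After each library was centred on its median it was -0.30 with an adjusted p of 0.0191. That comparison called 6.71% of genes (3.16% higher and 3.55% lower), 47.1% of the calls being higher, or 33.4% after centring. Among markers of other cells, the 5 leukocyte markers all had changes above 0 (median 1.4, summed 1.63 to 3.3 in WT and 1.98 to 5.89 in knockout-labelled). So did the 5 fibroblast markers (median 1.1, summed 6.93 to 8.04 and 7.21 to 8.61). In each list 0 of 5 were called and 0 had libraries apart, against 9.13% of all genes apart and higher. The part of these markers in the lower Chchd3 was not tested. EDL of the class changed by -0.06 ± 0.085. Between WT muscles Chchd3 was higher in soleus by 0.12 ± 0.049 (adjusted p = 0.0402), a call lost in 13 of 27 alternatives. Without the ERRalpha/ERRgamma wild types the difference was 0.21 (limma, adjusted p = 0.00514).

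Chchd6 (ENSMUSG00000030086.16, chromosome 6, 89383146 to 89595652, minus strand) spread more between libraries, from 0.18 to 1.77 overall. Its largest change outside the ERRalpha/ERRgamma class was in EDL of the ERRbeta/ERRgamma class. WT libraries were at 0.34, 0.68 and 0.18 and knockout-labelled libraries at 1.38, 1.21 and 0.90, so that all knockout-labelled libraries were higher. The change of 0.76 ± 0.25 had an unadjusted p of 0.00467 and an adjusted p of 0.335. Slow-fibre markers were lower in the same knockout-labelled libraries, 4.36 to 5.34 against 6.51 to 6.67, and their part was not tested. In the ERRalpha/ERRgamma class Chchd6 changed by 0.31 ± 0.25 in EDL and -0.07 ± 0.25 in soleus, with overlap in both. Leaving out 1 library gave 0.07 (without dmKO replicate 3) to 0.53 (without dmKO replicate 2) in EDL and -0.23 (without dmKO replicate 2) to 0.06 (without dmKO replicate 3 or WT replicate 1) in soleus, so neither Chchd6 value is stable, whereas Chchd3, the other MICOS gene, was lower there.

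Chchd4, the receptor and oxidase of the import relay, lies on chromosome 6 from 91462172 to 91473546 on the minus strand (ENSMUSG00000034203.8). It was higher in soleus than in EDL of WT animals by 0.43 ± 0.084 (adjusted p = 7.83e-05), or 135% of EDL. Soleus libraries ran from 3.77 through a median of 4.05 to 4.44 and EDL libraries from 3.26 through 3.67 to 4.02, so the groups overlapped. This is the opposite direction to Chchd10. Inside animals, soleus was above EDL in 11 of 13 (-0.08 to 1.13), the 2 exceptions being ERRbeta/ERRgamma WT animals.

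Chchd4 in EDL of the ERRalpha/ERRgamma class went from 3.26, 3.96 and 3.67 in WT to 2.94, 2.97 and 2.79. The groups did not overlap, and the knockout-labelled level was 60.3% of WT (-0.73 ± 0.15). Soleus went from 4.26, 4.12 and 4.44 to 3.96, 3.85 and 3.61, again without overlap, or 72.3% of WT (-0.47 ± 0.15). Elsewhere Chchd4 changed by -0.25 ± 0.15 in EDL and 0.10 ± 0.15 in soleus of the ERRalpha class, and by -0.17 ± 0.15 and 0.21 ± 0.15 in the ERRbeta/ERRgamma class. None of these was called (adjusted p = 0.421 to 0.905).

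Chchd1 encodes a small subunit protein of the mitochondrial ribosome (ENSMUSG00000063787.4, chromosome 14, 20703006 to 20704425, plus strand). Its mean was higher in both muscles of the ERRalpha/ERRgamma class, as was that of Chchd5. Soleus went from 6.66, 6.6 and 6.52 in WT to 6.75, 7.10 and 6.97, with no overlap (0.34 ± 0.087, 127% of WT). EDL went from 6.89, 6.56 and 6.57 to 6.67, 6.88 and 6.87, which overlap (0.13 ± 0.087). Without the WT library at 6.89 the EDL change was 0.24. The medians of all genes in these comparisons were 0.11 in soleus and 0.13 in EDL, so Chchd1 in EDL was at the level of the median gene. In the 2 other classes its changes lay between -0.16 and 0.10, and none was called.

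Chchd5 and Chchd7 encode small substrates of the relay, Chchd7 being the homologue of a yeast protein needed for cytochrome c oxidase. Chchd7 (ENSMUSG00000042198.12, chromosome 4, 3938888 to 3951046, plus strand) was lower in both muscles of the ERRalpha/ERRgamma class. EDL went from 0.81, 0.95 and 0.87 to 0.36, 0.60 and 0.45 (-0.40 ± 0.13), and soleus from 0.78, 0.88 and 0.84 to 0.37, 0.50 and 0.18 (-0.48 ± 0.13). Neither pair overlapped. In EDL of the ERRalpha class it changed by -0.33 ± 0.13, with overlap, an unadjusted p of 0.0205 and an adjusted p of 0.216.

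Chchd5 (ENSMUSG00000037938.4, chromosome 2, 129129700 to 129134134, plus strand) was at 2.04, 1.87 and 2.05 in WT EDL of the ERRalpha/ERRgamma class and 2.09, 2.35 and 2.41 in knockout-labelled EDL. All knockout-labelled libraries were higher, by 0.30 ± 0.18 on average. Soleus changed by 0.08 ± 0.18, with overlap, and over the 12 groups the means of Chchd5 stayed between 1.61 and 2.28.

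Counted over the 8 genes, the libraries of the ERRalpha/ERRgamma class did not overlap in EDL for 4 that were lower (Chchd3, Chchd4, Chchd7 and Chchd10) and 1 that was higher (Chchd5). In soleus they were apart for the same 4 that were lower and for Chchd1, which was higher. Over all genes, libraries did not overlap for 37.9% in EDL (11.6% lower, 26.4% higher) and 32.2% in soleus (10.6% lower, 21.7% higher). Since this class chose the genes, nothing is read from those counts.

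In the 5 other tested comparisons limma called 0 of the 8. In ERRbeta/ERRgamma EDL, 0.218% of genes were called (0.158% lower). At an unadjusted p under 0.05 it had 1 of 8 (Chchd6), against 953 of 13333 genes. Without overlap were 1 lower and 2 higher, against 15.5% of all genes (5.25% lower and 10.2% higher). ERRalpha soleus (0.71% called, 0.464% higher) had 1 at that unadjusted threshold (Chchd10), against 1442 of 13374 genes. Without overlap it had 1 lower and 1 higher, against 16.5% (8.99% lower and 7.48% higher). ERRbeta/ERRgamma soleus had 1 at the unadjusted threshold (Chchd3), against 2844 of 13375 genes. It had 2 lower and 2 higher without overlap, against 18% (8.86% lower and 9.13% higher). For the difference between the muscles' changes, the ERRalpha class had 2 at the unadjusted threshold (Chchd3 and Chchd10), against 965 of 13262 genes. The ERRbeta/ERRgamma class had 0, against 1579 of 13305. After adjustment 0.0151% of genes were called in the former and 0.21% in the latter (0.0526% higher and 0.158% lower). The fit without an intensity trend and the robust fit called 0 of the 8 in these 5 comparisons too. Median centring called 1, Chchd3 lower in ERRbeta/ERRgamma soleus.

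Placed among all genes, the fall of Chchd10 in EDL of the ERRalpha/ERRgamma class ranked 11 of 13358 by size and 1 by size over its SE. Its nearest neighbours by size were Fuom (-3.15), Cd1d1 (-3.05) and Ung (-2.99) above it and Lep (-2.81), Gnb5 (-2.80) and Paqr9 (-2.75) below it. These 6 had mean levels of -1.20 (Cd1d1) to 2.01 (Gnb5) and SEs of 0.19 to 1.5, while Chchd10 had a mean level of 7.30 and an SE of 0.089. Among the 6698 genes at or above the median level with a value in every library, its EDL change ranked 1. By the difference between muscles it ranked 56 of 13342, between Kcnj15, Unc13d and Foxf2 (2.52 to 2.54) and Itga4, Ccl27b and Dpp6 (2.47 to 2.46), and 2 among the 6698.

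**Figure D4:**
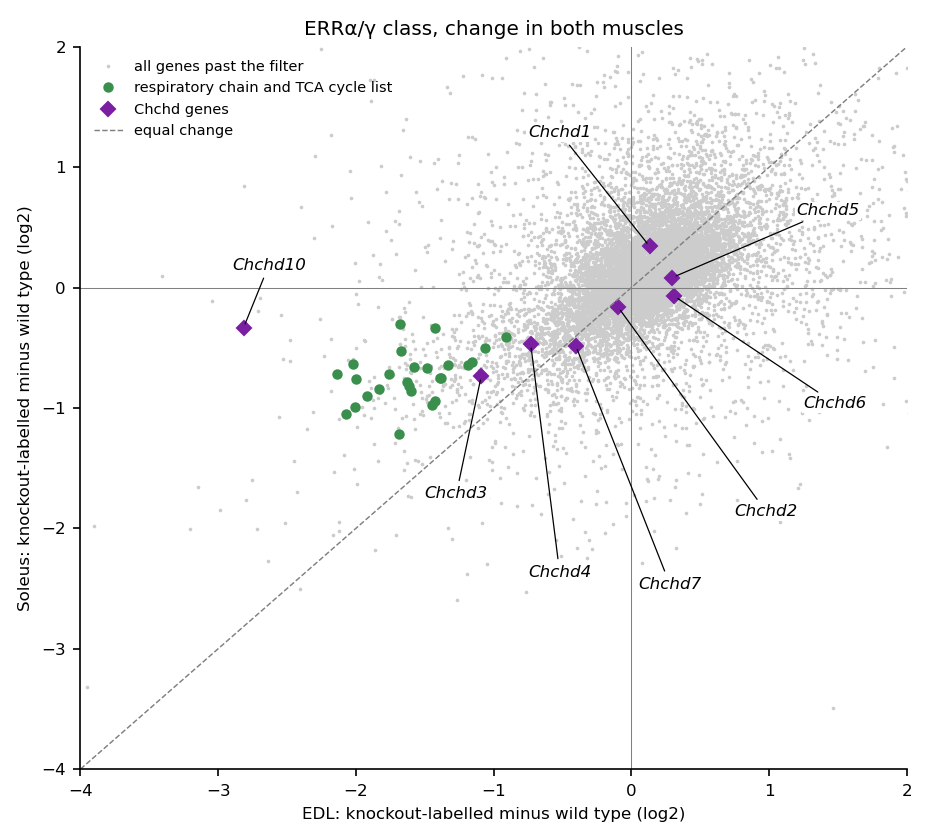
Change in the ERRα/γ class (knockout-labelled minus wild type, log2), in EDL (horizontal axis) against soleus (vertical axis), for the genes past the filter with a change in both muscles. Grey points are all genes (138 of 13342 lie outside the axes, which run from -4 to 2), green points the respiratory chain and TCA cycle list, and diamonds the 8 Chchd genes. Chchd10 (-2.82, -0.33) lies left of every green point, of which the lowest EDL value is -2.14.

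The oxidative list of 26 respiratory chain and tricarboxylic acid (TCA) cycle genes gave the scale for these values. In the ERRalpha/ERRgamma class its changes ran from -2.14 (Cyc1, cytochrome c1) to -0.913 (Cs, citrate synthase) in EDL, with a median of -1.6 against 0.13 over all genes. In soleus they ran from -1.22 (Dlst) to -0.299 (Sdhd), with a median of -0.73 against 0.11. Chchd10 thus lay below the whole list in EDL and near its upper end in soleus. Of the 26, 10 were called lower and 0 higher in EDL of the ERRalpha class (1.46% and 1.82% of all genes), led by Cox4i1 (-0.62 ± 0.083) and Cycs (-0.60 ± 0.088). In soleus of the ERRbeta/ERRgamma class 6 were called lower (3.55% of all genes), among them Sdhb (-0.51 ± 0.079). The leukocyte and fibroblast marker values given for Chchd3 belong to the same libraries, and the part of these markers was not tested. Chchd10 was called in neither comparison.

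The relay list held 25 of 26 genes past the filter, with a median of -0.21 in both muscles of the ERRalpha/ERRgamma class. Gfer, the oxidase that serves Chchd4, was called higher in EDL of the ERRalpha class (0.60 ± 0.088, adjusted p = 8.73e-05), in its soleus (0.53 ± 0.088, adjusted p = 0.00245) and in ERRbeta/ERRgamma EDL (0.43 ± 0.088, adjusted p = 0.0233). In the ERRalpha/ERRgamma class Gfer changed by 0.97 ± 0.088 in EDL and 0.80 ± 0.088 in soleus, where Chchd4 was lower. Of the 25, 1 was called higher (Gfer) and 4 lower in EDL of the ERRalpha class, against 1.82% and 1.46% of all genes. Those lower include Ndufa8 (-0.58 ± 0.066) and Ndufb7 (-0.60 ± 0.073), complex I subunits folded through the relay. Aifm1, which tethers Chchd4 to the membrane, changed by -1.01 ± 0.082 in EDL of the ERRalpha/ERRgamma class and by -0.01 ± 0.082 in that of the ERRalpha class. Aifm1 was named after its values were seen.

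Of the MICOS and cristae list, 11 of 13 genes passed the filter. In the ERRalpha/ERRgamma class 10 of the 11 had changes below 0 in each muscle, with medians of -0.77 in EDL and -0.44 in soleus. The extremes in EDL were Mtx2, an import metaxin (-1.28 ± 0.14), and Mtx3 (0.115). In EDL of the ERRalpha class 2 of 11 were called lower, Minos1 (-0.38 ± 0.067, adjusted p = 0.000947) and Apoo (-0.31 ± 0.077, adjusted p = 0.0229), both MICOS subunits, and 0 higher, against 1.46% and 1.82% of all genes. Chchd3 fell in the same comparison. In WT animals 7 of 11 were called higher and 1 lower in soleus (30.8% and 23.6% of all genes), with a median of 0.3 against 0.077 over all genes.

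The proteases and scaffolds linked with Chchd10 and Chchd2 (15 of 15 kept) had medians of -0.56 in EDL and -0.29 in soleus of the ERRalpha/ERRgamma class. Afg3l2, an inner membrane protease, had the lowest EDL value (-1.15 ± 0.082) and Yme1l1 the highest (0.169). Ghitm was the 1 gene of the 15 called in EDL of the ERRalpha class (-0.30 ± 0.06, adjusted p = 0.00299), where 1.46% of all genes were called lower and 1.82% higher. In WT animals 5 of the 15 were called higher and 4 lower in soleus, close to the 30.8% and 23.6% of all genes. Among them Phb2, a prohibitin scaffold, was higher in soleus (0.57 ± 0.034) and Spg7 was lower (-0.37 ± 0.046).

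The list for the small subunit of the mitochondrial ribosome, the complex of Chchd1, holds mostly genes with Mrps names (31 of 31 kept). Whether each of their proteins belongs to that subunit was not checked. The list had medians of -0.28 in EDL and -0.19 in soleus of the ERRalpha/ERRgamma class, while Chchd1 changed by 0.13 and 0.34. The list ran from -1.48 (Mrps35) to 0.177 (Mrps14) in EDL, and 28 of 31 changes were below 0. For the ERRalpha class in EDL, Dap3 (-0.33 ± 0.088) and Mrps33 (-0.35 ± 0.094) were called lower and 0 higher, against the same 1.46% and 1.82%.

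**Figure D5:**
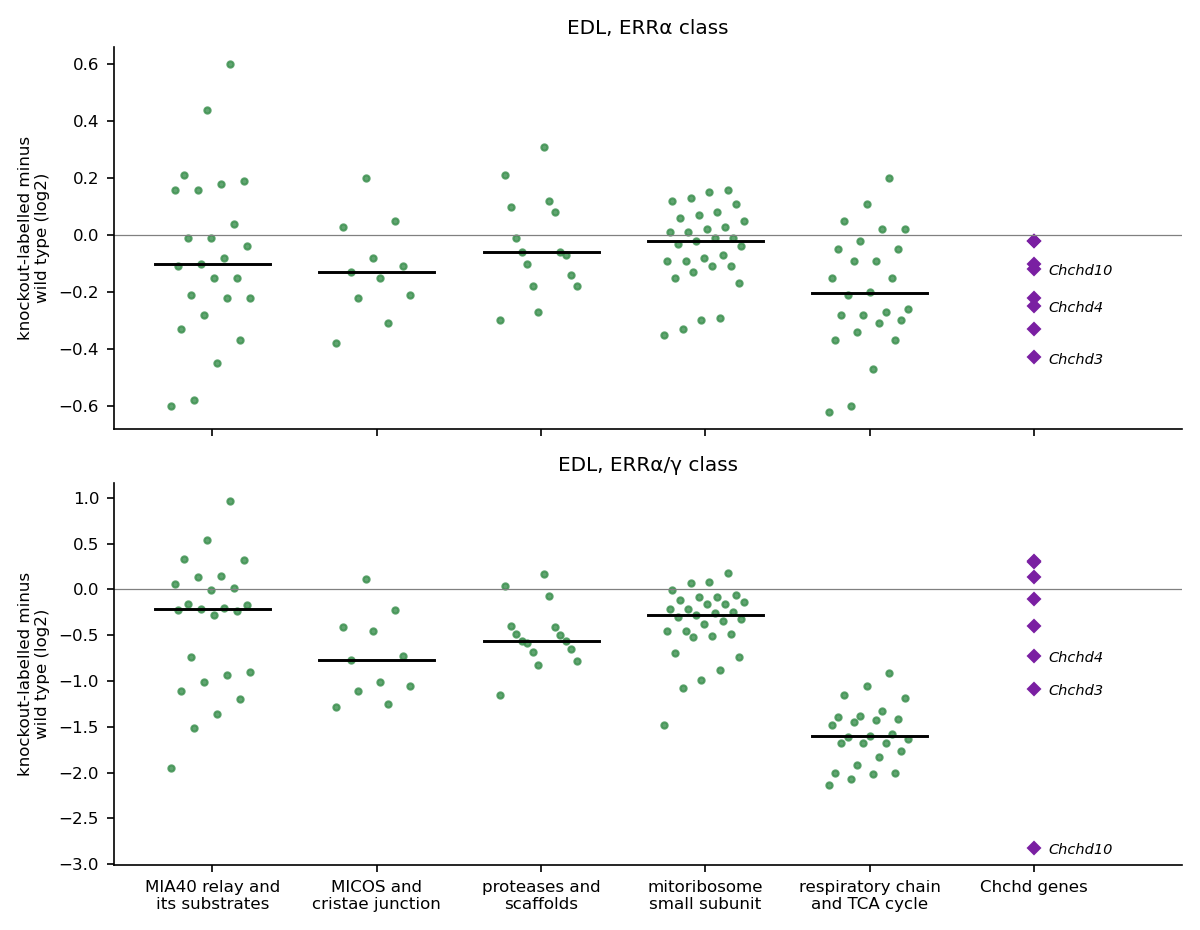
Change in EDL (vertical axis, knockout-labelled minus wild type, log2) of each gene of 5 related lists (circles, horizontal axis; bars are medians) and of the 8 Chchd genes (diamonds), for the ERRα class (top) and the ERRα/γ class (bottom). In the lower panel Chchd10 (-2.82) lies below all genes shown, and in the upper panel Chchd3 (-0.43) is the lowest of the 8.

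The list for the integrated stress response, which defects of Chchd10 are known to activate, had 13 of 14 genes past the filter. Its median was -0.44 in EDL and 0.29 in soleus of the ERRalpha/ERRgamma class. The lowest EDL value was that of Chac1 (-0.815) and the highest that of Atf4 (0.17), and in soleus they were Ddit3 (-0.391) and the mitokine Gdf15 (1.12). Atf5, a transcription factor of the mitochondrial stress response, was called lower in EDL (-0.49 ± 0.14, adjusted p = 0.0494) and soleus (-0.66 ± 0.14, adjusted p = 0.0228) of the ERRalpha class. Mthfd2 was called higher in soleus of the ERRbeta/ERRgamma class (1.19 ± 0.34, adjusted p = 0.0307), where Chchd10 changed by 0.01.

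Likeness to Chchd10 was measured as Pearson's r over the 36 libraries among the 11913 other genes with a value in all of them, as a description, since libraries of a group share their group's level. The 6 most alike were Cyc1 (0.94), Uqcrc1 (0.936), Coq9 (0.934), Uqcr10 (0.931), Ndufb5 (0.925) and Got1 (0.923). Without the 6 knockout-labelled ERRalpha/ERRgamma libraries their r fell to between -0.195 (Ndufb5) and 0.629 (Coq9), so the likeness rests on that class. Those most alike over the other libraries were Slc16a10 (0.902), Asb4 (0.896), Me3 (0.881), Wbp2 (0.877), Slc25a12 (0.873) and Tmem94 (0.865), each lower in WT soleus than in WT EDL.

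Among the relatives, Chchd3 had r = 0.68 with Chchd10 over the 36 libraries and -0.42 without those 6, and Chchd4 had 0.52 and -0.52. Chchd2 went the other way, from 0.13 to 0.75. Chchd7 had 0.48 and 0.21. Without those libraries Chchd2 thus had the highest r of the relatives, while Chchd3, Chchd4 and Chchd7 were the relatives lower without overlap in both muscles of that class.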

How the data were processed

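RNA of EDL and soleus was sequenced in 36 libraries, 12 groups of 3 animals. Per the labels' protocols, 400 ng of total RNA were amplified over 10 PCR cycles with a directional kit. The deposited table holds log2 signals, which the authors quantile normalized according to its name. The submitters' processing notes name Partek 6.6, GRCm38.p6 and mm10. Not given in the sources used here are the aligner, the counter, any use of strand and the unit that was logged. Quantile normalisation removed the read totals, so depth and counting error are unknown. Base 2 was read from the spacing of low values.

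Columns were matched to groups by muscle, class letters and Cre mark. For EDL of the ERRalpha class, names lack the class letter, and the animal numbers shared with soleus names gave the group. An empty cell was taken as not detected and left missing, and no pseudocount was added. Genes were kept where their mean, with missing values at the table's lowest value (-8.21), was above the 25th percentile (-5.24). Rows whose symbols had become dates (27) were left out.

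limma 3.58.1 (R 4.3.3) with an intensity trend was fitted to all 36 libraries with 1 mean per group, and p-values were Benjamini-Hochberg adjusted over all genes of a comparison (threshold 0.05). The script was tested on simulated data. The ERRalpha/ERRgamma comparisons chose the genes and carry no test. Alternatives were median centring, other filters, missing values at the lowest value, no trend, a robust fit, the animal as a block, a fit on the groups compared only, and leaving out each library. For WT muscles, the comparison was also run without the ERRalpha/ERRgamma wild types.

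The members and lists were chosen with earlier results of these data known. Named genes are the 8 members, up to 3 called genes per list and comparison without overlap (or the one with the lowest p), the extremes of each list in the ERRalpha/ERRgamma class, the 6 most alike to Chchd10 and its 3 neighbours in rank.

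The 14 same-animal pairs come from numbers in the column names. Deviations of their muscles from the group means correlated at -0.068 to 0.32 (median 0.098, 7 of 14 over 0.1).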

Additional observations from a re-analysis of the deposited data

Results flagged for a closer look

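Chchd1 in the 9 wild-type EDL libraries had 1 library apart from the others. It stood at 6.89 and the nearest at 6.57, a gap of 0.53 of the whole range, above Dixon's 95% critical value for 9 samples. The library belongs to the ERRalpha/ERRgamma class, and chance flags about 1 in 20 such groups.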

How the results depend on the processing

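The 80 values of the 8 genes were recomputed under 1368 alternatives in all, and 1321 kept their direction and call, or moved by less than 1 SD where there was no test. Chchd10 in the ERRalpha/ERRgamma class stayed at -2.9 to -2.71 in EDL and -0.40 to -0.29 in soleus. Between WT muscles, Chchd10, Chchd2 and Chchd4 kept their calls in all 27 alternatives. The call of Chchd3 there (0.12) was lost after median centring (0.06, adjusted p = 0.299), without the intensity trend (0.12, adjusted p = 0.0541), in a fit on the groups compared only (0.12, adjusted p = 0.0718) and when 1 of 10 libraries was left out (adjusted p 0.0525 to 0.108). The number of the 8 genes called higher there was 1 in place of 2 in each of these cases, and 1 to 2 over the libraries left out. Without the ERRalpha/ERRgamma wild types Chchd3 kept this call (0.21, limma, adjusted p = 0.00514). Centring raised the number of the 8 genes called lower in ERRbeta/ERRgamma soleus from 0 to 1 (Chchd3, -0.30).

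In the tested comparisons 31 alternatives reversed a sign, none of them of a called value. Among the untested ERRalpha/ERRgamma values, leaving out 1 library also changed the sign of Chchd6 in soleus (-0.23 to 0.06) and of the difference between muscles for Chchd7 (-0.15 to 0.01). With median centring Chchd10 in ERRbeta/ERRgamma soleus was -0.05, Chchd2 there -0.05, Chchd5 there -0.02 and Chchd7 in ERRbeta/ERRgamma EDL -0.01. Without the ERRalpha/ERRgamma wild types Chchd6 between WT muscles was -0.03. Leaving out 1 library gave these ranges. In ERRbeta/ERRgamma soleus they were -0.07 to 0.05 for Chchd10, -0.01 to 0.04 for Chchd2 and -0.07 to 0.12 for Chchd5, and in its EDL -0.08 to 0.12 for Chchd7. In ERRalpha EDL they were -0.07 to 0.06 for Chchd1 and -0.23 to 0.20 for Chchd5. In ERRalpha soleus they were -0.10 to 0.04 for Chchd2, -0.28 to 0.03 for Chchd5 and -0.08 to 0.49 for Chchd6. For Chchd5 the difference between muscles was -0.34 to 0.09 in the ERRalpha class and -0.24 to 0.03 in the ERRbeta/ERRgamma class, and for Chchd7 between WT muscles -0.07 to 0.01. Without the WT library at 6.89, Chchd1 was 0.24 in EDL of the ERRalpha/ERRgamma class, with a difference of 0.10. The cause of these shifts was not tested.

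With the animal as a block (consensus correlation 0.14) no call of the 8 genes changed; Chchd10 in ERRalpha/ERRgamma EDL was -2.82 and Chchd3 in ERRalpha EDL -0.43 (adjusted p = 0.00285). A fit on the groups compared only called 201 genes in ERRalpha EDL (436 with all libraries), 4 in ERRbeta/ERRgamma EDL (29), 2 in ERRalpha soleus (95) and 4 in ERRbeta/ERRgamma soleus (898). Leaving out 1 library gave 225 to 303, 11 to 25, 25 to 73 and 396 (without ERRbeta/ERRgamma dmKO soleus replicate 1) to 2139 (without replicate 2) in the same order. The block called 9 and 107 genes for the difference between muscles in the ERRalpha and ERRbeta/ERRgamma classes (2 and 28), and leaving out 1 library gave 1 to 5 and 1 (without ERRbeta/ERRgamma dmKO soleus replicate 1) to 521 (without replicate 2).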
